A study of Mus musculus with 2 samples.

Results

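The 10 genes described here encode sensors of RNA and DNA in the cytosol, their adaptors and a nuclease that limits them. They are Ddx58 (RIG-I), Ifih1 (MDA5) and Dhx58 (LGP2), their adaptor gene Mavs, the adaptor gene Tmem173 (STING), Zbp1, Trex1, Aim2 and the p200 family genes Ifi203 and Ifi204. Members were chosen by name, taking every probe whose symbol in the platform annotation, or a synonym of it, is 1 of these 10. This gave 17 probes, out of 55681 on the array, and all 10 genes were among the 13417 genes detected on at least 1 array. In a RefSeq gene table Tmem173 is now listed as Sting1. Igf2bp1, for which Zbp1 is an old alias, is a different gene and was left out. Mndal, a neighbour whose name that table also gives as an alias of Ifi203, was kept apart from it.

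RNA came from naive CD4 T cells (low for CD44, high for CD62L, negative for CD25) of C57BL/6 spleens, taken with a kit that isolates CD4+CD62L+ T cells. One culture is labelled Gfi1 wild type and the other Gfi1 knock out; Gfi1 is a zinc-finger repressor of transcription. Both cultures had the same 2 days of stimulation, with immobilized antibody to TCR-β (3 μg/ml), antibody to CD28 (1 μg/ml), IL-2 (10 ng/ml), and neutralising antibodies to IL-4 (5 μg/ml) and to IFN-γ (5 μg/ml). The study's stated subject is the effect of Gfi1 on the T helper 1 programme of activated CD4 T cells. The design of the Gfi1 allele, the age of the mice and how many gave cells are not given in the sources used. Each label has 1 array (1-colour, Cy3), so no spread between cultures can be had, no test was possible and no p-value is given. The comparisons are of these 2 libraries.

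RIG-I and MDA5 are helicases that bind foreign or misplaced RNA and pass the signal through MAVS on mitochondria, and LGP2 is a related helicase without the signalling domains that tunes both. DNA in the cytosol is read by cGAS, whose product activates STING, and by AIM2, which assembles an inflammasome with the adaptor ASC (gene Pycard). ZBP1 binds nucleic acid in the Z form and can engage RIPK3 and cell death, and TREX1 degrades stray DNA. Many of these genes belong to the interferon-stimulated genes, and STING is well expressed in T cells.

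Before the values, the stretches around the start sites of some members are shown, so that a reader can set them beside the signals. The RefSeq promoter table (GRCm38.p6, 250 bases before to 50 after each start) held 6 of the 10 genes in 8 entries. Dhx58, Tmem173, Zbp1 and Ifi204 have no entry in it. Capitals mark the paired sites that interferon regulatory factors can bind, searched as GAAANNGAAA and its reverse complement TTTCNNTTTC, and, added after the sequences had been read, GAAANGAAA and TTTCNTTTC. Shown are Ddx58, whose signal was higher in the knockout-labelled library, and Ifih1, a helicase gene of the same family whose signal was not. Ifi203 and Aim2, of the p200 family, are shown with them.
Ddx58, chr4:40239776-40240075, minus strand: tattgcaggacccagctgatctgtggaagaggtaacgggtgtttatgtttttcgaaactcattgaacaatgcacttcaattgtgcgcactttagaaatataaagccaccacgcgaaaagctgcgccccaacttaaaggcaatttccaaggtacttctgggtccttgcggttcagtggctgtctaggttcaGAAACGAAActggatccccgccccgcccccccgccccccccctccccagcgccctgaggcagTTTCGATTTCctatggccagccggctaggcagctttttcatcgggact
Ifih1, chr2:62646206-62646505, minus strand: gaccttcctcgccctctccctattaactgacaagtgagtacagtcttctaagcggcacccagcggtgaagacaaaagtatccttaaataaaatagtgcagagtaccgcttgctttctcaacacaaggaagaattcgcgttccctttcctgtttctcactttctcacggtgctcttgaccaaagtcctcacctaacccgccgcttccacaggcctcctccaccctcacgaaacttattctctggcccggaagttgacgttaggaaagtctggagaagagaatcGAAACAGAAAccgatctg
Ifi203, chr1:173942443-173942742, minus strand: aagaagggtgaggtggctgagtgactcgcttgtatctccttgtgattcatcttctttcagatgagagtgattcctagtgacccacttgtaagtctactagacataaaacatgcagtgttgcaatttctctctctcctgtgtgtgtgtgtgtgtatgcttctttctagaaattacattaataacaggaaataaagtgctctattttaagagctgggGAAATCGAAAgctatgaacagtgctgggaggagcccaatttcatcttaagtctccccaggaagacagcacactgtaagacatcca
Aim2, chr1:173420354-173420653, plus strand: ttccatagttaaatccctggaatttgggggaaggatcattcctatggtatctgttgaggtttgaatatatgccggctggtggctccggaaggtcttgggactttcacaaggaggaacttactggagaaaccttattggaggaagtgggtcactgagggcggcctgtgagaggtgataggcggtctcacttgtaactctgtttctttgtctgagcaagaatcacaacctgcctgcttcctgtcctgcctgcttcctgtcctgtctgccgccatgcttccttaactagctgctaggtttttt

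The GAAANNGAAA letters occur once each in the Ddx58, Ifih1 and Ifi203 windows shown. In Ddx58 the match (TTTCGATTTC, on the reverse strand) begins 3 bases into the transcript, and in Ifih1 the match (GAAACAGAAA) begins 33 bases into it. In Ifi203 it (GAAATCGAAA) begins 35 bases before the start, and the other Ifi203 entry, which overlaps this one, does not hold it. The form with 1 base between the paired sites was found in Ddx58 alone of the 8 entries, 60 bases before the start. Of 32851 promoter entries of the same length, 3.44% hold the first form and 3.17% the second, each counted on both strands. The letters of the γ-activated site, TTCNNNGAA (8.30% of entries), and a core bound by GFI1, AAATCAC or its complement GTGATTT (3.20%), were in none of the 8 member entries, which include Mavs and both Trex1 entries. Ddx58 and Ifih1 both carry the first form, and Ddx58 also carries the second. Any bearing of these letters on the signals given next was not tested. A match is a description of letters in this window.

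Across the 10 genes, 4 differed by 2-fold or more upward, brighter in the knockout-labelled library (Dhx58, Zbp1, Ifi204 and Ddx58), and 0 downward. Of all detected genes 3.61% passed 2-fold upward and 1.53% downward. The median log2 difference (knockout-labelled minus wild-type-labelled library, each array scaled to its 75th percentile) was 0.52 over the 10 genes and -0.05 over all detected genes. Of the 10 differences 9 lay above 0, as did 41.6% of all detected genes, and 5 lay above 0.46, the 90th percentile of all detected genes. Aim2, Ifi203, Trex1 and Tmem173 differed by less than 2-fold in the same direction, Mavs stood near 0 and Ifih1 just below it. Of the 17 probes 14 were above the floor, the median of the array's probes (14.2 and 14.6 units), on both arrays, 2 on the array labelled knockout alone and 1 on neither. CD8 T and NK cell markers were also brighter under the knockout label (7 of the 7 genes above the floor on both arrays), and the values stand with those of the other markers further on.

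**Figure D1:**
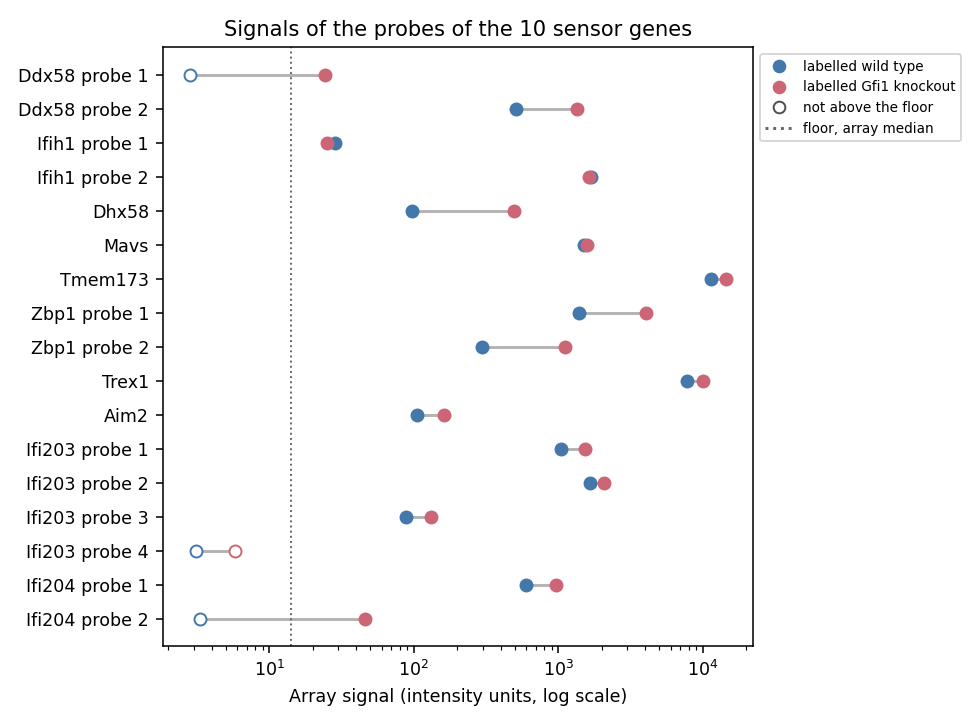
Array signal (intensity units, log axis) of each of the 17 probes of the 10 sensor genes in the wild-type-labelled library (blue) and the knockout-labelled library (red), 1 array each; open points are not above the floor, drawn as a dotted line. The widest gaps between filled points are those of Dhx58 (97.3 and 496 units) and Zbp1 (295 and 1120 units on probe 2), while the points of Ifih1 and Mavs nearly coincide.

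Among the RNA helicases, Dhx58 had the largest difference of the 10 genes. The only Dhx58 probe read 97.3 units in the wild-type-labelled library and 496 in the other. This 4.98-fold difference (log2 2.32) ranks 84 from the top of 13417 genes. Ddx58 was read by 2 probes. The brighter read 508 and 1350 units (log2 1.38), and the dimmer 2.81 and 24.4 units, the first below the floor, which makes its fold at least 1.68. Both Ddx58 probes were brighter in the knockout-labelled library, though the floor fixes the sign of the dimmer one. With the dim side set to the floor the gene stood at 1.06 ± 0.44 (SD over 2 probes). That mean lies close to the 2-fold line and takes in a bound, so the brighter probe is the firmer reading.

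Ifih1 differed little between the libraries. Its brighter probe read 1680 units in the wild-type-labelled library and 1630 in the other, and its dimmer probe 28.5 and 25 units. Neither probe showed a higher signal under the knockout label, and the gene stood at -0.15 ± 0.10 (SD over 2 probes), with 67.8% of detected genes above it. The brighter probe gave -0.08, beside a median of -0.05 over all detected genes. The dimmer gave -0.22, at a level (15 to 50 units) where the median SD over spots was 0.35. Mavs, through which RIG-I and MDA5 both signal, read 1510 and 1580 units (log2 0.03, 1 probe). So within 1 receptor family Dhx58 and Ddx58 were higher and Ifih1 was not, and the shared adaptor differed by 1.02-fold.

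Zbp1 was higher on both of its probes. The first read 1390 units in the wild-type-labelled library and 4070 in the knockout-labelled library (log2 1.52), and the second read 295 and 1120 units (log2 1.89). The gene stood at 1.70 ± 0.27 (SD over 2 probes), a 3.26-fold difference, at rank 191. The probes cite different RefSeq transcripts of the gene, and both were past 2-fold.

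On the DNA side the adaptor and the nuclease had bright probes and small differences. Tmem173, the STING gene, read 11400 units in the wild-type-labelled library and 14500 in the other, a 1.24-fold difference (log2 0.31). Trex1, the exonuclease gene, read 7810 and 10000 units, a 1.25-fold difference (log2 0.32). Both lay above 0 by a like amount, with 14.4% of detected genes above Tmem173 and 14.0% above Trex1. For scale, probes printed on 10 spots gave a median SD over spots of 0.04 at 5000 to 50000 units, which covers variation within an array and not between cultures.

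Aim2, the inflammasome sensor, read 105 units in the wild-type-labelled library and 162 in the other, a 1.51-fold difference (log2 0.59). Its single probe lies at feature number 62924, in a part of the array numbered above 50000. Of spots there dimmer than 500 units 25.7% differed by 2-fold in either direction, against 9.62% at lower numbers. These shares set no floor for the dimmer side and take in spots down to 14.2 units, so they are not a rate at the level of this probe. No other probe reads Aim2, and the part of the spot's place in this difference was not tested.

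Ifi203 had 3 probes above the floor, and all were somewhat brighter in the knockout-labelled library. They read 1050 and 1520 units (log2 0.50), 1650 and 2070 units (log2 0.29), and 88.0 and 132 units (log2 0.55), in each case wild-type label first. The gene stood at 0.45 ± 0.14 (SD over 3 probes), a 1.37-fold difference, and the remaining probe was below the floor on both arrays. Ifi204, which the RefSeq table links to the alias Ifi16, was read by 2 probes that gave different sizes. Its brighter probe read 602 and 966 units (log2 0.65). The other probe read 3.30 and 46.1 units, the first below the floor, a bound of at least 3.17-fold, and its dim spot is numbered above 50000. The gene mean of 1.16 ± 0.72 (SD over 2 probes) passed 2-fold through this second probe, and without spots above 50000 Ifi204 stood at 0.64. Genes of this family are close copies of each other and probes can share signal between them; how far was not tested.

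**Figure D2:**
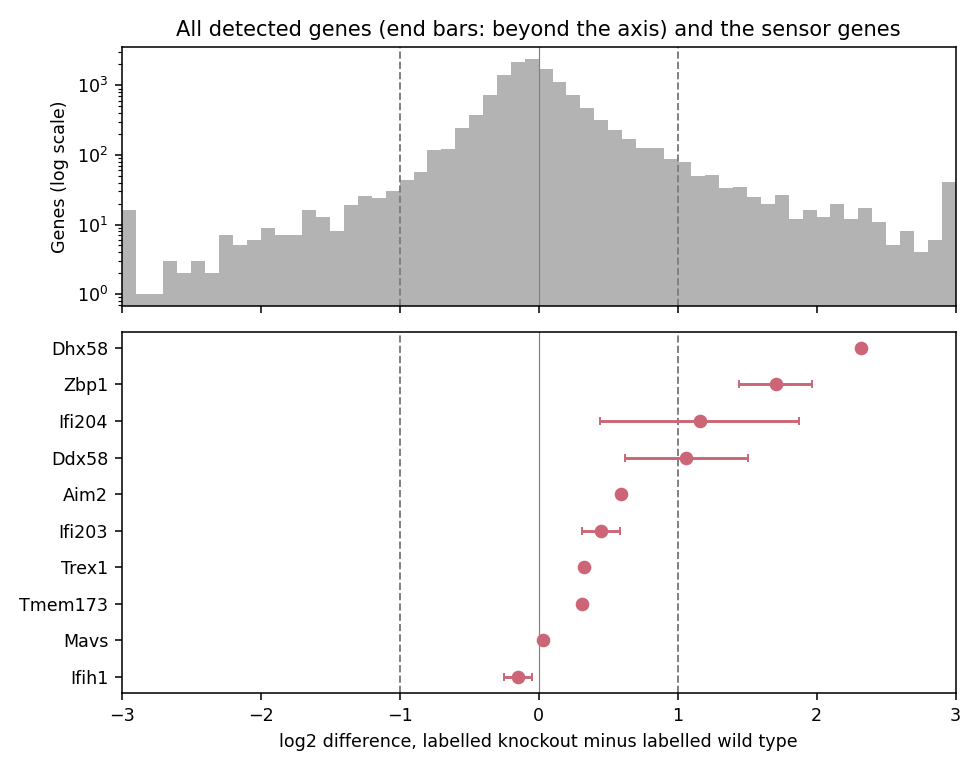
Upper panel, number of genes (log axis) by log2 difference, knockout-labelled minus wild-type-labelled library, for the 13417 detected genes, with the end bars holding genes beyond the axis; lower panel, the 10 sensor genes, where bars are the SD over probes of genes with several detected probes and dashed lines mark 2-fold. Dhx58 (2.32) and Zbp1 (1.70) lie well right of the line, Ifi204 (1.16) and Ddx58 (1.06) have SDs that cross it, and Ifih1 (-0.15) lies left of 0.

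Brightness bears on how firm these readings are. Of the 17 probes, 10 reached 500 units on an array, and 3 of these passed 2-fold upward, the brighter Ddx58 probe and both Zbp1 probes. Of all named probes that bright 1.84% did so. Of the 17 probes 7 lie above feature number 50000, among them the first Zbp1 probe, the brighter Ifih1 probe and that of Tmem173. There 2.45% of spots at 500 units or more differed by 2-fold in either direction, with no floor set, against 1.91% at lower numbers. The Dhx58 probe, at 496 units, stayed just under that level; at 50 to 500 units the median SD over spots was 0.11. Dhx58, Zbp1 and the brighter Ddx58 probe therefore hold the differences past 2-fold that rest on probes detected on both arrays.

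The other p200 genes, a list of the same family, lie beside Ifi203, Ifi204 and Aim2 on the chromosome. Of the 7 with a probe 5 were detected, and their median was 0.94. That median is the value of Ifi208, so it leans on the floor. It takes in Ifi208 probes at 5.45 and 46.0 and at 2.75 and 20.8 units, below the floor under the wild-type label. Of the 5 genes 4 were detected on both arrays, and Ifi207 was detected under the knockout label alone. Past 2-fold were 2 of the 5 (40%) upward and 0 downward, against 3.61% and 1.53% of all detected genes. Ifi211, which the platform annotation names Mnda, read 291 units in the wild-type-labelled library and 1980 in the other, a 6.65-fold difference (log2 2.73). Ifi209, annotated as Pyhin1, stood at 1.75 ± 0.06 (SD over 3 probes, 2 of them below the floor under the wild-type label). Ifi208 had 4 probes that disagreed, from 0.13 on the brightest (2190 and 2450 units) to at least 1.66 on a dim one. Mndal, which lies between Ifi204 and Ifi211, stood at 0.10 (3170 and 3470 units), and Ifi213 and Ifi202b were below the floor on both arrays. In the order of the gene table the larger differences were therefore interleaved with small ones, as with Mndal beside Ifi211. The probe of Ifi207 read 15.3 units under the knockout label, just above the floor, and Ifi205, Ifi206 and Ifi214 were not analysed here.

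**Figure D3:**
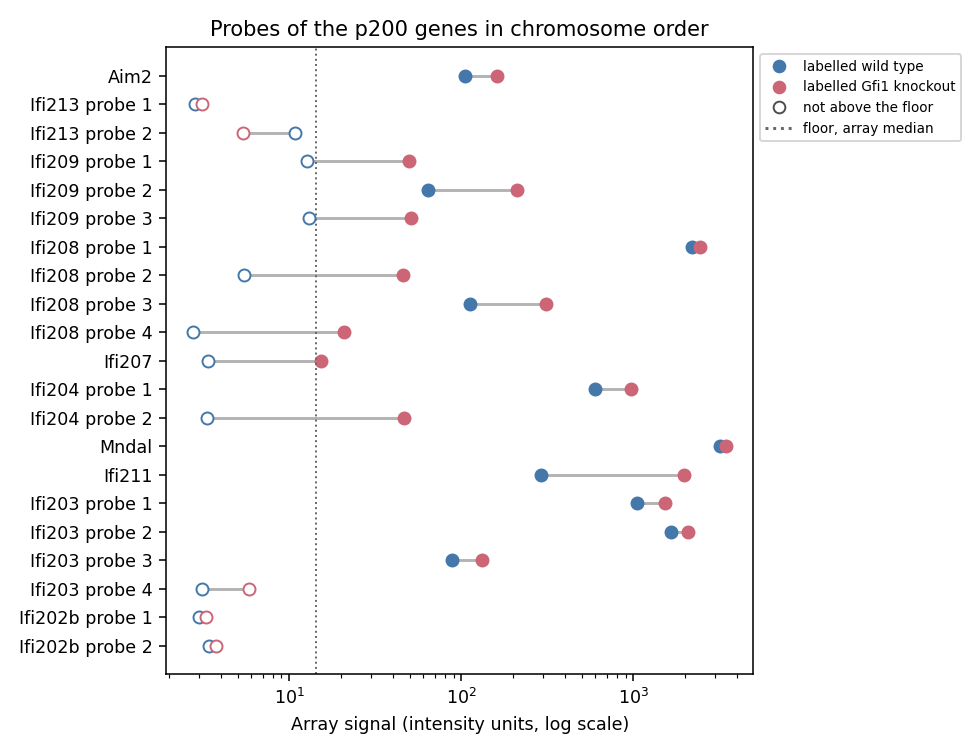
Array signal (intensity units, log axis) of the probes of the p200 genes, listed from top to bottom in the order of the RefSeq gene table, for the wild-type-labelled (blue) and the knockout-labelled library (red); open points are not above the floor. Ifi211 (291 and 1980 units) has a wide gap, whereas Mndal next to it (3170 and 3470 units) has almost none.

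Of 18 detected genes among the other sensors and cofactors of the cytosol, 2 (11.1%, against 3.61% of all detected genes) passed 2-fold upward and 0 downward, while the median was -0.08. These 2 were Eif2ak2, the gene of the RNA-activated kinase PKR (335 and 820 units, log2 1.26), and Nlrc5, a regulator of MHC class I genes (1.01 ± 0.25, SD over 2 probes). The brighter Nlrc5 probe (1900 and 4440 units) stood at 1.19. The dimmer (37.5 and 68.3 units) stood at 0.83, so the mean lies at the 2-fold line. Mb21d1, the gene of cGAS that feeds STING, was brighter under the knockout label on both probes above the floor on each array (1080 and 1720, 110 and 147 units). Its remaining probe (7.98 and 20.1 units) was below the floor under the wild-type label, so the floor fixes its sign. The gene, with that probe taken in, stood at 0.50. The helicase genes Ddx3x (-0.17), Dhx36 (0.01), Dhx9 (-0.09) and Dhx15 (-0.06) lay close to 0. Ddx60 and Nlrp3 were below the floor on both arrays.

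The ligases and regulators of the RIG-I, MAVS and STING routes had a median of 0.05 over 22 detected genes. Past 2-fold were 2 of the 22 (9.09%) upward and 0 downward, against 3.61% and 1.53% of all detected genes. Usp18, which removes ISG15 from proteins and dampens interferon receptor signalling, read 184 and 2610 units (log2 3.79), and Anxa2, an annexin gene, 23200 and 49700 units (log2 1.07). Trim25, a ligase for RIG-I, had 2 probes of opposite sign (0.63 and -0.24). Tnfaip3, the gene of the NF-κB inhibitor A20, stood at 0.85.

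Downstream, of 24 detected kinases, adaptors and factors 2 (8.33%) passed 2-fold upward and 0 downward, and the median was 0.08. The shares over all detected genes were 3.61% and 1.53%. Irf7, a factor that drives type I interferon genes and is itself interferon-inducible, read 47.1 units in the wild-type-labelled library and 343 in the other, a 7.12-fold difference (log2 2.83). Tbkbp1, an adaptor of the kinase TBK1, was higher on both probes above the floor on each array (315 and 1810, 17.5 and 111 units). Its remaining probe (3.26 and 31.1 units) was below the floor under the wild-type label, so the floor fixes its sign. The kinase genes Tbk1 (0.08) and Ikbke (-0.04) and the factor gene Irf3 (-0.10, 10900 and 10400 units) lay near 0. Within this route the sensors Dhx58 and Ddx58, the adaptor Tbkbp1 and the factor Irf7 were higher. The sensor Ifih1 (-0.15), Mavs, Tbk1, Ikbke and Irf3 lay near 0.

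Partners of AIM2 and ZBP1 had a median of 0.43 over 10 detected genes, with 1 (10%) past 2-fold upward and 0 downward. The shares over all detected genes were 3.61% and 1.53%. Casp1, the inflammasome protease gene, stood at 0.66 (1670 and 2700 units), and Casp4 at 0.92 ± 0.05 (SD over 2 probes). Pycard, the adaptor of AIM2, stood at -0.30 (10400 and 8630 units). Il18, a cytokine that caspase-1 matures, was the 1 past 2-fold, on a dim probe (17.9 and 61.0 units). Of the death partners of ZBP1, the kinase gene Ripk3 stood at -0.22 and the pore-forming effector gene Mlkl at 0.88.

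Nucleases and modifiers that keep self nucleic acid in check, the group of Trex1, had a median of -0.07 over 15 detected genes. Of the 15, 0 were counted past 2-fold in either direction, against 3.61% upward and 1.53% downward of all detected genes. Pld4 (6.62 and 28.9 units, the first below the floor) gave a bound of at least 1.99-fold, which cannot place it within 2-fold. Adar, which edits double-stranded RNA, stood at 0.69 ± 0.39 and Samhd1, which degrades deoxynucleotides, at 0.60 ± 0.35 (SD over 2 probes each). The RNase H2 subunit genes Rnaseh2a, Rnaseh2b and Rnaseh2c stood at -0.26, -0.10 and -0.14. Trex1 at 0.32 lay between these.

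Receptors of nucleic acid in endosomes, a separate compartment, had a median of 0.05 over 6 detected genes. Past 2-fold were 1 (16.7%) upward and 0 downward, against 3.61% and 1.53% of all detected genes. That 1 was Tlr7, a receptor of single-stranded RNA, with 2 detected probes. The brighter (567 and 880 units) gave 0.60 and the dimmer (86.3 and 307 units) 1.80, so Tlr7 passed 2-fold through the dimmer. Tlr9 stood at -0.09 and Unc93b1, which carries these receptors, at 0.54.

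Type I interferon genes, their receptor and the factor complex behind it had a median of 0.21 over 11 detected genes. Past 2-fold were 1 (9.09%) upward and 0 downward, against 3.61% and 1.53% of all detected genes. Stat2 read 1240 and 3570 units (log2 1.49) and Irf9, its partner, 1910 and 3710 units (log2 0.93). The receptor genes Ifnar1 (-0.04 ± 0.15, SD over 3 probes) and Ifnar2 (0.18) lay near 0. Ifnb1 read 3.95 and 22.7 units, the first below the floor and the second just above it, which gives a bound of at least 1.56-fold on a dim spot. Also dim were Ifna2 (24.9 and 45.7 units, log2 0.84), Ifna5 (39.7 and 50.6 units, 0.32) and Ifna1 (56.1 and 66.5 units, 0.21). Ifnk read 17.5 and 9.96 units, the second below the floor. Ifna4 and Ifne were below the floor on both arrays.

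**Figure D4:**
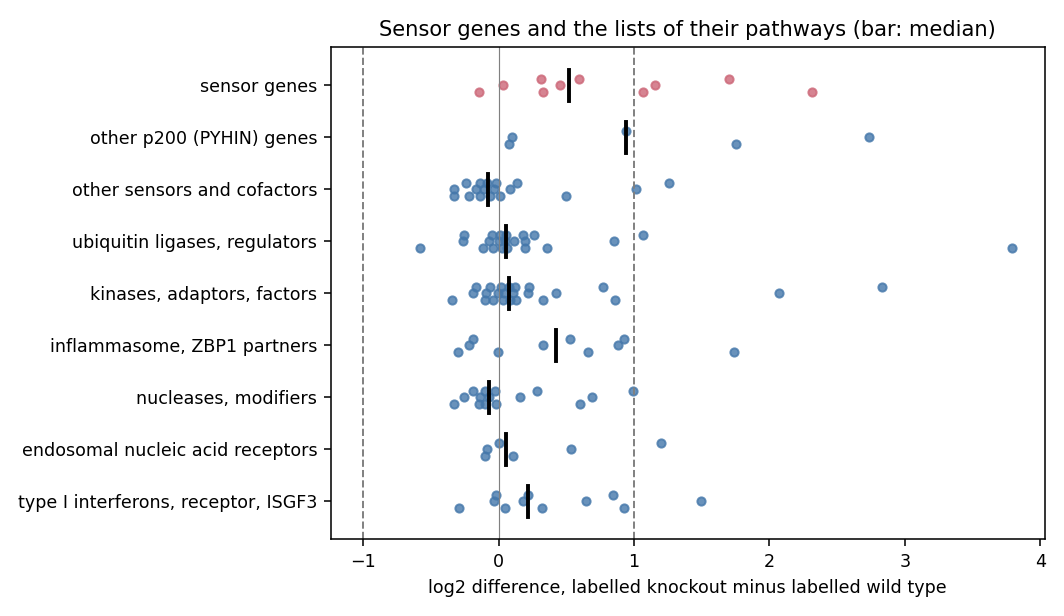
log2 difference, knockout-labelled minus wild-type-labelled library, of each detected gene among the 10 sensor genes (red) and the 8 lists of related genes (blue), with a black bar at the median and dashed lines at 2-fold. The medians of the sensor genes (0.52), the other p200 genes (0.94) and the partners of AIM2 and ZBP1 (0.43) lie right of the others, which run from -0.08 to 0.21, and no gene shown lies at or beyond 2-fold on the lower side. The p200 median is the value of Ifi208, which takes in probes below the floor under the wild-type label.

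Each array held 59305 spots, and the 75th percentile of probe signals was 263 units for the wild-type label and 269 units for the knockout label. Gfi1 itself read 4260 and 18100 units, brighter in the knockout-labelled library, and the sources used do not place its probe inside or outside the deleted part; directions therefore rest on the labels. Sex-linked transcripts also separated the libraries, with Xist at 447 and 3.86 units and the Y-linked Eif2s3y at 2.91 and 3870 units, so label and sex cannot be told apart. The 7 measured T cell markers (Cd3d, Cd3e, Cd3g, Cd4, Cd5, Cd28 and Cd6) were detected on both arrays. All 7 were lower under the knockout label (median -0.41, summed signal 239854 and 187261 units). Cd4 itself, at -0.14, lay closest to 0 of the 7, where the median of all detected genes was -0.05. Of all detected genes 41.6% lay above 0, 3.61% passed 2-fold upward and 1.53% downward. Of the 12 CD8 T and NK cell markers 7 were above the floor on both arrays, of which 7 lay above 0 and 5 passed 2-fold; the other 5 were detected under the knockout label alone, so the floor fixes their sign. The summed signal of the 12 was 739 units under the wild-type label, where Cd8a, Klrk1, Klrb1c, Ncr1 and Klre1 were below the floor, and 2245 units under the other. Klrc1 had the largest difference of the 12, at 2.31 over 2 probes, near the 2.32 of Dhx58. Its probes read 97.8 and 654 units, and 3.7 and 54.6 units, where 3.7 is below the floor. Klra1 had the smallest, at 0.32, and the median was 1.11. The summed signal of the B cell markers was 588 and 1231 units, with Pax5 and Fcrla below the floor on both arrays. Of the 7 detected 2 (28.6%) passed 2-fold upward and 0 downward. These 2, Ms4a1 (18.9 and 221 units, log2 3.52) and Blnk (30.6 and 386 units, log2 3.62), differed by more than any of the 10 sensor genes, while Cd79b stood at -0.17. Myeloid and dendritic cell markers, from cells in which many sensors are known to be abundant, had a median of 0.01 over 9 detected genes. Their summed signal (63949 and 64884 units) is mostly that of 1 Siglech probe (51600 and 50400 units; the other 2 Siglech probes read 15.2 units or less) and of Cst3 (7080 and 7870 units), and does not describe the class. Of these markers 8 were below the floor under each label, with Lyz2, Cd14, Itgax, Clec9a, Xcr1 and Cybb below the floor on both arrays. Past 2-fold were 1 of the 9 detected genes (11.1%) upward and 0 downward. That gene was Mpeg1, at 11.7 and 335 units on the 1 probe detected of its 2. The first value is below the floor, so its log2 difference is at least 4.53, beyond that of any sensor gene. Granulocyte markers summed to 632 and 718 units, with S100a8, S100a9, Ltf, Ngp and Retnlg below the floor on both arrays. Past 2-fold were 1 of 4 detected genes (25%) upward and 0 downward. That gene was Mmp8 (3.14 and 106 units, the first below the floor), with a log2 difference of at least 2.87. The part of these other cells in the differences of the sensor genes was not tested, and in RNA of a whole culture more cells of a type and more RNA per cell cannot be told apart.

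**Figure D5:**
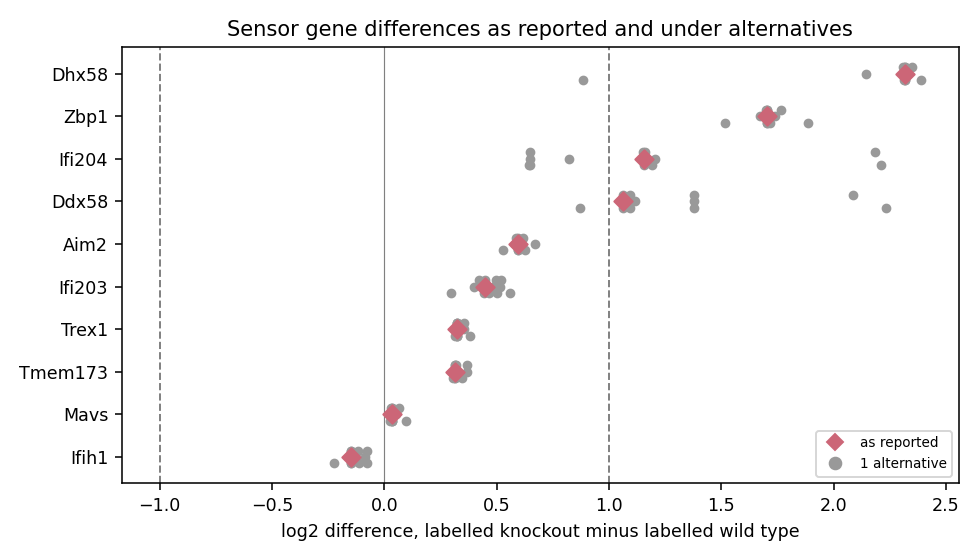
log2 difference of each of the 10 sensor genes as reported (red diamonds) and under each alternative setting that gave it a value (grey points), with dashed lines at 2-fold. Zbp1 stays between 1.52 and 1.89 and right of the line throughout, Dhx58 falls left of it once (0.88), and Ifi204 ranges from 0.64 to 2.21.

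Over the 14 settings that gave differences, the reported one included, Zbp1 was past 2-fold in 14, Dhx58 and Ddx58 in 13 each and Ifi204 in 9. Dhx58 stood at 0.88 with a floor at the 75th percentile, which lies above its wild-type signal and so shortens the difference. Ddx58 stood at 0.87 with an offset of 16 units. No sensor gene crossed 0 under any of them, and Ifih1 kept its place just below 0 (-0.23 to -0.08).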

How the data were processed

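RNA of 2 cultures was measured on 1-colour mouse arrays, from 100 ng of total RNA each per the labels' protocols, and processed with Agilent Feature Extraction 11.5.1.1 per the submitters' processing notes. The authors deposited an intensity for every spot, headed as raw, whose background correction the sources used do not give. Their second deposited table holds these intensities times a constant (median ratio 2.27 and 2.26, column medians 34.4 and 34.8 units); it is linear and not centred, and the origin of the constant is unknown.

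Intensities were log2-transformed, averaged per probe and scaled to each array's 75th percentile. Probes above their array's median counted as detected, an undetected side was set to that floor, and a gene took the mean of its probes detected on either array. Genes past 2-fold (log2 of 1, inclusive) were counted. Of the spots 31465 carry 1 gene symbol, 0 several and 27840 none; RefSeq (GRCm38.p6) matched 29036 by accession, 2075 by symbol and 314 by synonym, and 40 were kept. Coordinates are those of the RefSeq promoter table alone, since the array files name no build.

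Members, lists and rules were chosen with earlier results of these data known. Named were all members, Gfi1, pathway genes fixed by name, up to 4 genes past 2-fold of each list, and markers at the floor or with the largest difference; 1 of those fixed is not reported here. Other pathway genes counted within 2-fold, such as Casp4, Tnfaip3, Pld4, Ddx3x, Tlr9 and the RNase H2 genes, were picked after their values were seen. So were Cd4 and the sex-linked genes. A simulation of this comparison covered 13129 genes. Calls were made for 0% of 50 genes set to 1.5-fold, 98% of 50 set to 3-fold and 100% of 50 set to 6-fold. Of 12929 left as they were 0.07% were called. Its noise came from spots and not cultures, so with a line at 2-fold these shares largely follow from the settings. The changed genes were drawn from those above the floor under the wild-type label, so differences that rest on a bound are not covered. Alternatives were other scalings, the authors' table, other floors, probe rules, an offset, spot ranges and fold thresholds. Software was Python 3.11.15, numpy 2.4.6, pandas 2.3.3, then statsmodels 0.14.6 for loess and matplotlib 3.10.9 for plots.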

Additional observations from a re-analysis of the deposited data

How the results depend on the processing

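The count of 4 sensor genes at least 2-fold higher was 3 with probes detected on both arrays, with the brightest probe per gene and without spots above feature number 50000 (where Aim2 and Tmem173 have no value), each time losing Ifi204. It was 2 when the floor lay at the 75th percentile (Ddx58 and Zbp1), with an offset of 16 units and at 3-fold (Dhx58 and Zbp1 in both), and 5 at 1.5-fold. None was lower in any setting. The median over sensor genes ran from 0.40, with the floor at the 75th percentile, to 0.59. Over all detected genes the counts of 485 higher and 205 lower became 982 and 635 under a 25th-percentile floor, 136 and 20 under a 75th-percentile floor, 1007 and 639 with no filter, 1030 and 572 at 1.5-fold and 216 and 87 at 3-fold. They became 374 and 125 with probes detected on both arrays, 339 and 117 with the offset, and 351 and 105 without spots above 50000. Of single sensor genes, Ddx58 and Ifi204 stood at 2.09 and 2.18 under a 25th-percentile floor and at 2.23 and 2.21 with none, since both have a probe that is dim under the wild-type label. Dim signals limit these readings, and with 1 array per label no array can be left out. No paired analysis was possible because each label has 1 array.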
